A study of Zea mays with 20 samples.

Results

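The SBP-box genes ub2 (GRMZM2G160917), ub3 (GRMZM2G460544), sbp6 (GRMZM2G307588, also known as tsh4), sbp2 (GRMZM2G168229) and tga1 (GRMZM2G101511) were followed in 20 maize RNA-seq libraries. They are 5 of 39656 genes of a table of read counts, and 5 of 24 SBP-box genes found in it by name. They come from a study of the meristem regulator KNOTTED1 and were taken by gene identifier. The genes ub2, ub3, sbp6 and sbp2 were chosen by their fold change between kn1-e1 mutant and sibling tassels, in which they were known to be higher in the mutant. Their tassel difference is therefore given as a description with no test. How tga1 was chosen is not recorded, so all of its values are given as a description.

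SBP-box proteins are plant transcription factors that share a zinc-binding DNA-binding domain. Many of their messenger RNAs, including those of ub2, ub3, tsh4 and tga1, carry a site for the microRNA miR156, which is abundant in juvenile shoots and declines as the shoot matures. In maize ub2 and ub3 (unbranched2 and unbranched3) act redundantly on the lateral primordia of inflorescence meristems and affect tassel branch number and ear row number. The gene tsh4 (tasselsheath4) marks the boundary of lateral meristems and suppresses the bract leaf below them. The gene tga1 (teosinte glume architecture1) governs how the glume encloses the kernel and separates maize from its wild ancestor.

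All plants were of the B73 inbred background. Young leaves came from greenhouse plants 10 days after germination that carried the gain-of-function allele Kn1-N in 2 copies (Kn1-N/Kn1-N), in 1 copy (Kn1-N/+) or not at all (+/+), with 2 libraries each. The dissected leaf tube began 2 to 3 mm above the shoot apical meristem (SAM), reached a length of 7 to 8 mm and had a width of 1 to 2 mm. Homozygotes of the loss-of-function allele kn1-e1 (kn1-e1/kn1-e1) were compared with siblings. The siblings are titled wild type, carry the genotype label kn1-e1/+ and are described in the design as heterozygote or wild type, so part or all of them may carry the mutant allele. Field-grown tassel primordia (3 mutant and 3 sibling libraries, pools of 10) measured 2 to 3 mm in mutants and 4 to 5.5 mm in siblings. Field-grown ear primordia (2 and 2 libraries, pools of 6 to 8) measured 4 to 5 mm in mutants and 7 to 8 mm in siblings. Organ size and kn1 genotype thus differ together in tassel and ear and cannot be told apart. Vegetative apices (2 and 2 libraries, pools of 15) were cut at the base of leaf primordium P4 from greenhouse plants 19 days after germination.

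The libraries held 16068246 to 20722952 counts. The targeted gene kn1 (GRMZM2G017087), a KNOX homeobox gene of meristems, followed the labels. It had 162 and 223 counts in homozygous, 103 and 126 counts in heterozygous and 1 and 0 counts in +/+ leaf libraries. Its log2 fold change was -2.12 ± 0.12 (SE, adjusted p = 8.7e-07), -1.98 ± 0.06 (adjusted p = 8.2e-10) and -1.66 ± 0.13 (adjusted p = 3.1e-05) in kn1-e1 tassel, ear and SAM. Tissue markers also followed the labels. A list of 20 leaf photosynthesis genes summed to 971 to 1220 CPM (counts scaled to a common library size) in leaf and to 41.8 to 74.2 CPM elsewhere. A list of 8 KNOX and BELL genes summed to 26.6 to 46.9 CPM in leaf, 179 to 207 CPM in SAM, and 714 to 991 CPM in tassel and ear. A list of 33 floral MADS genes summed to 158 to 172 CPM in leaf, 446 to 480 CPM in SAM and 925 to 1320 CPM in tassel and ear.

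In the vegetative apex ub2 and ub3 stood at their highest. The level of ub2 was 132 and 104 CPM in the sibling SAM libraries, 50.4 and 51.6 CPM in sibling ears, 41.4, 38.7 and 37.9 CPM in sibling tassels, and 6.42 and 7.69 CPM in +/+ leaves. The control tissues did not overlap for ub2. The level of ub3 was 183 and 150 CPM in sibling SAM, 53.4, 53.5 and 53.6 CPM in sibling tassels, 31.1 and 27.6 CPM in sibling ears, and 6.74 and 8.41 CPM in +/+ leaves. The groups were separate again, but tassel and ear stood in the opposite order from ub2. With the mutants included, kn1-e1 ear (77.7 ± 7.09 CPM, SD, n = 2) and kn1-e1 tassel (70.9 ± 3.2 CPM, n = 3) overlapped for ub2, while for ub3 the 6 groups outside the leaf were all separate. The 3 leaf genotypes ran into each other for both genes. These levels are CPM with library sizes scaled by TMM, they carry no correction for gene length, and they are compared between tissues and never between genes. The tissues were bulk samples, in which fewer expressing cells and less RNA per cell cannot be told apart.

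The tissue differences of the ub genes were tested in a fit of all 20 libraries with edgeR's quasi-likelihood test and Benjamini-Hochberg adjustment over 23679 genes. Comparisons between tissues share control libraries with each other, and the sibling tassel libraries also entered the contrast by which the genes were known. In sibling SAM against sibling ear, where 48.8% of all genes passed the test, the log2 fold change was 1.2 ± 0.11 for ub2 (adjusted p = 7.2e-09) and 2.50 ± 0.10 for ub3 (adjusted p = 2.1e-15). In sibling SAM against sibling tassel, where 55.2% of genes passed, it was 1.57 ± 0.10 for ub2 (adjusted p = 9.8e-12) and 1.63 ± 0.08 for ub3 (adjusted p = 1.4e-13). Between sibling tassel and sibling ear, where 37.8% of genes passed, ub3 was higher in the tassel by 0.87 ± 0.09 (adjusted p = 1.3e-07), while ub2 differed by -0.37 ± 0.11 (adjusted p = 0.0086). The ub2 call was lost without sibling ear 2 (log2 fold change -0.35, adjusted p = 0.079). In +/+ leaf against sibling SAM, where 72.8% of genes passed, the log2 fold change was -4.06 ± 0.14 for ub2 (adjusted p = 4.3e-17) and -4.46 ± 0.12 for ub3 (adjusted p = 3e-19). With library totals in place of TMM the median of all genes in that comparison lay at -0.11. Age, growth place and genotype label differ between leaf, SAM and the inflorescences along with the tissue. Tassel and ear primordia differ in length as well as in organ.

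**Figure D1:**
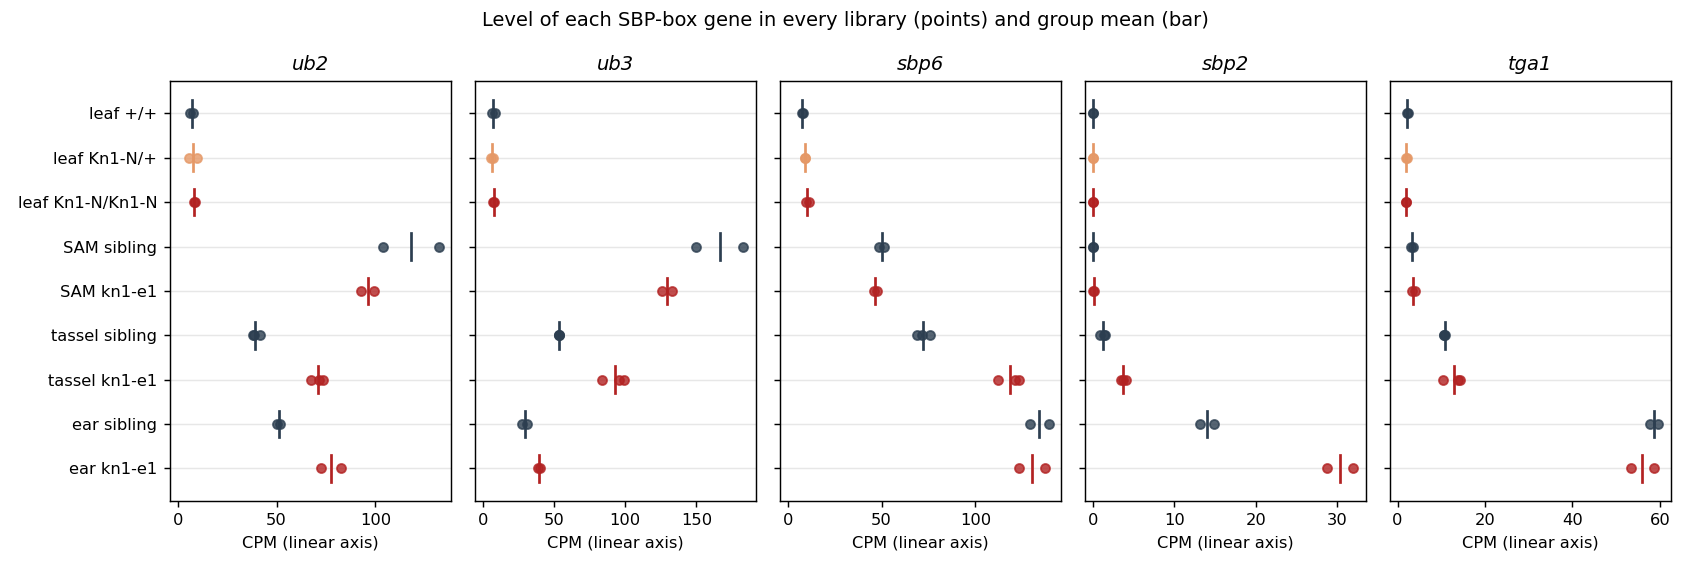
Level of each SBP-box gene in CPM (linear horizontal axis, a scale of its own per gene) in each library (points) of the 9 groups, with the group mean as a bar. The genes ub2 and ub3 are highest in SAM, sbp6, sbp2 and tga1 are highest in ear, and all 5 are lowest in leaf or, for sbp2, in leaf and SAM.

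The gene sbp6 (tsh4) had the reverse order, with more in the ear than in the apex. It reached 129 and 139 CPM in sibling ears, 71.4, 68.8 and 76.0 CPM in sibling tassels, 51.3 and 48.8 CPM in sibling SAM, and 7.97 and 7.64 CPM in +/+ leaves. All neighbours in this order were separate. Over all 9 groups sibling ear, kn1-e1 ear and kn1-e1 tassel formed an overlapping run at the top, at means of 134 ± 7.03, 130 ± 10.5 and 119 ± 5.72 CPM (SD, n = 2, 2 and 3). Against the ear, the log2 fold change of sbp6 was -0.89 ± 0.07 in tassel (adjusted p = 3.3e-10) and -1.43 ± 0.08 in SAM (adjusted p = 3.6e-13). It was -0.54 ± 0.07 in SAM against tassel (adjusted p = 9.4e-07) and -2.68 ± 0.10 in +/+ leaf against SAM (adjusted p = 9.5e-17). Of all genes 37.8, 48.8, 55.2 and 72.8% passed in these comparisons, in the order given. The sibling tassel libraries also entered the contrast by which sbp6 was chosen, so its p-values against tassel are not independent of that choice.

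The genes sbp2 and tga1 were higher in ear than in tassel and lowest in SAM and leaf, where sbp2 was near the floor. The gene sbp2 held 14.9 and 13.2 CPM in sibling ears and 1.42, 0.942 and 1.55 CPM in sibling tassels. The difference of tassel from ear was -3.42 ± 0.19 on the log2 scale (adjusted p = 2e-12), where 37.8% of all genes passed. The sibling tassel libraries also entered the contrast by which sbp2 was chosen, so this p-value is not independent of that choice. In the SAM sbp2 had 1 count in each sibling library and 3 and 1 counts in the mutant libraries, and among the 6 leaf libraries it had 0 to 2 counts. Summed over libraries and divided by depth, sibling ears held 253 times the sbp2 counts of sibling SAM (95% interval 69.6 to 2090), and sibling tassels 23.6 times (6.3 to 198). These exact intervals cover counting error only. At this depth sbp2 counts allow no order between SAM and leaf.

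The gene tga1 stood at 57.7 and 59.6 CPM in sibling ears, 10.9, 10.7 and 10.7 CPM in sibling tassels, 3.01 and 3.57 CPM in sibling SAM, and 2.30 and 2.10 CPM in +/+ leaves. Its difference of tassel from ear was -2.44 ± 0.10 on the log2 scale, and that of SAM from ear was -4.17 ± 0.13. SAM differed from +/+ leaf by much less, with leaf lower by a log2 fold change of -0.56 ± 0.21.

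The balance between ub2 and ub3 differed between the inflorescences. Tassels and ears were also of unlike length (4 to 5.5 mm and 7 to 8 mm in siblings), so organ and length cannot be told apart. Of the counts that fell on either gene, ub3 took 56.3, 58.0 and 58.6% in sibling tassels, and 38.2 and 34.8% in sibling ears. In the kn1-e1 mutants the shares were 53.9, 59.6 and 56.5% in tassel and 34.7 and 32.9% in ear. Every ear library, mutant or sibling, lay below every tassel library. Over both genotypes the mean share was 57.1% in 6 tassel and 35.1% in 4 ear libraries (two-sided exact permutation test, p = 0.0095, adjusted over 6 tissue pairs p = 0.014, the smallest p these numbers allow being 0.0095). This test and the permutation tests below pooled the genotypes of a tissue and treated their libraries as exchangeable. Mutant and sibling tassels and ears differed in length, and the tassel libraries formed the contrast by which ub2 and ub3 were chosen.

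In the SAM the ub3 share was 57.3 to 59.1%, inside the tassel range. SAM and tassel differed by 0.875 percentage points (exact permutation p = 0.46), SAM and ear by 22.9 (exact permutation p = 0.029, adjusted p = 0.034). Leaves held 43.1 to 52.2%, above the ear (exact permutation p = 0.0095, adjusted p = 0.014) and below the SAM (exact permutation p = 0.0095, adjusted p = 0.014) and the tassel (exact permutation p = 0.0022, adjusted p = 0.013). Leaf shares rest on 232 to 334 counts per library and ear shares on 1360 to 2490 counts. The exact 95% interval of the first +/+ leaf share, 51.2%, ran from 44.8 to 57.6%, whereas that of the first sibling ear share, 38.2%, ran from 35.6 to 40.8%. How reads common to similar SBP-box genes were assigned is not given in the sources used here, and the shares depend on it.

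**Figure D2:**
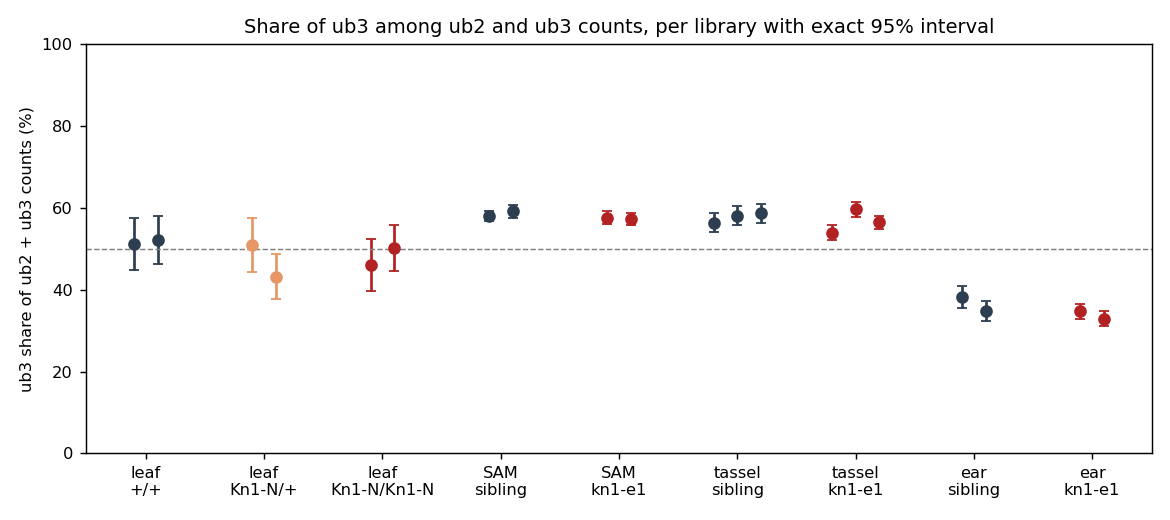
Share of ub3 among the summed counts of ub2 and ub3 (vertical axis, percent) in each library, with its exact 95% binomial interval, by tissue and genotype. The dashed line marks equal counts. The 4 ear libraries sit between 32.9 and 38.2%, all below the 6 tassel libraries at 53.9 to 59.6%.

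The tassel contrast is the one by which the genes were known, and its values describe the choice. The gene ub2 held 71.7, 67.4 and 73.6 CPM in kn1-e1 tassels against 41.4, 38.7 and 37.9 CPM in sibling tassels. The gene ub3 held 83.9, 99.3 and 95.5 CPM against 53.4, 53.5 and 53.6 CPM. For both, and for sbp6 at 112, 123 and 121 CPM against 71.4, 68.8 and 76.0 CPM, the lowest mutant library was above the highest sibling library.

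The fold was largest for sbp2, at 3.52, 3.78 and 4.04 CPM in kn1-e1 tassels against 1.42, 0.942 and 1.55 CPM in siblings. That is a log2 fold change of 1.53 ± 0.20, compared with 0.85 ± 0.05 for ub2, 0.79 ± 0.06 for ub3 and 0.71 ± 0.05 for sbp6. Only tga1 among the 5 had overlapping groups, with 13.9, 10.5 and 14.2 CPM in mutants against 10.9, 10.7 and 10.7 CPM in siblings (0.26 ± 0.11). Over all 21117 genes tested in tassel 2.34% were called up and 5.55% down, and nothing is read from this for genes chosen by the same contrast.

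The genes ub2, ub3 and sbp2 were also higher in the mutant ear, and sbp6 was not called there. The genes were chosen with earlier results of these data known, so the ear is not an independent check of the choice. The gene ub2 held 72.7 and 82.7 CPM in kn1-e1 ears against 50.4 and 51.6 CPM in sibling ears, a log2 fold change of 0.61 ± 0.07 (edgeR adjusted p = 7.7e-05). The gene ub3 held 38.7 and 40.5 CPM against 31.1 and 27.6 CPM (0.44 ± 0.08, adjusted p = 0.002). The gene sbp2 held 31.9 and 28.7 CPM against 14.9 and 13.2 CPM (1.12 ± 0.10, adjusted p = 9.7e-06). Both mutant libraries exceeded both sibling libraries for each of the 3 genes.

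The ear sbp6 values overlapped, at 123 and 137 CPM in mutants against 129 and 139 CPM in siblings. The log2 fold change of sbp6 was -0.04 ± 0.06 (adjusted p = 0.70, 95% interval -0.17 to 0.09). The gene tga1 overlapped as well, with 58.6 and 53.3 CPM against 57.7 and 59.6 CPM (-0.07 ± 0.07). Thus 3 of the 4 tested genes rose in the mutant ear, where 8.21% of 21281 genes rose and 10.4% fell. The ub3 call was lost without sibling ear 2 (log2 fold change 0.34, adjusted p = 0.08). The genes were first noticed in mutants of the same allele, and in the ear as in the tassel the mutant organs were the smaller ones.

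The lists of floral MADS and leaf photosynthesis genes, used above as tissue markers, moved in the same ear libraries. Of 29 tested floral MADS genes, 18 fell and 2 rose in the mutant ear, where 10.4% of all genes fell and 8.21% rose. The list summed to 925 to 936 CPM in mutants against 1290 to 1320 CPM in siblings, with 3 of 33 genes at 0 in each group. Of 11 tested leaf photosynthesis genes 6 rose, with sums of 63.4 to 66.8 CPM against 41.8 to 43.8 CPM and 4 of 20 genes at 0 in each group. In the tassel 7 of 20 tested MADS genes fell and 3 rose, where 5.55% of all genes fell and 2.34% rose. The MADS sums there were 929 to 931 CPM in mutants and 961 to 991 CPM in siblings. The tassel photosynthesis sums overlapped, at 60.2 to 72.0 CPM in mutants and 69.8 to 74.2 CPM in siblings. Of that list 0 of 8 tested genes rose and 2 fell (median -0.32 against 0.01 over all genes). That count was 0 or 1 when kn1-e1 tassel 1 or 3 or any sibling tassel was left out, and 1 with library totals and with DESeq2. The part of organ stage in the SBP-box values was not tested.

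In the vegetative apex the ub genes were not higher in the mutant. The gene ub2 held 93.0 and 99.3 CPM in kn1-e1 SAM against 132 and 104 CPM in sibling SAM, and ub3 held 126 and 133 CPM against 183 and 150 CPM. Each mutant library was below each sibling library for both genes, and the sibling libraries differed among themselves more than the mutant libraries did. The log2 fold change was -0.30 ± 0.13 for ub2 (adjusted p = 0.95, 95% interval -0.57 to -0.03) and -0.37 ± 0.13 for ub3 (adjusted p = 0.91, 95% interval -0.64 to -0.10). For sbp6, at 45.8 and 47.6 CPM against 51.3 and 48.8 CPM, it was -0.10 ± 0.10 (adjusted p = 0.96).

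None of the 3 genes tested in the SAM passed edgeR's adjusted threshold (0 of 3, against 0.164% of 20748 genes), 2 of the 3 had an unadjusted p under 0.05, and DESeq2 called 0. Leaving out 1 library at a time, the log2 fold change ran from -0.46 to -0.12 for ub2 and from -0.50 to -0.22 for ub3. Without sibling SAM 2, the lower of the sibling libraries, it was -0.46 for ub2 and -0.50 for ub3. Each such fit leaves 1 library in a group and assumes that it varies like those of the other group. The gene sbp2 was below the low-count filter, with a ratio of mutant to sibling counts of 1.97 (95% interval 0.282 to 21.8). The gene tga1 held 3.26 and 4.04 CPM in mutants against 3.01 and 3.57 CPM in siblings.

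The mutant effect on the ub genes differed between ear and SAM. Mutant ears were shorter than sibling ears (4 to 5 mm against 7 to 8 mm), and no size is given for the apices. Growth place and age also differ between ear and SAM, so these cannot be told apart from the tissue. In 1 fit of the 8 ear and SAM libraries, the effect in SAM minus that in ear was -0.90 ± 0.15 for ub2 (adjusted p = 0.013) and -0.79 ± 0.15 for ub3 (adjusted p = 0.019). For sbp6 it was -0.05 ± 0.12 (adjusted p = 0.86, 95% interval -0.32 to 0.21), and 1.79% of 21924 genes passed. Leaving out each of the 8 libraries in turn kept the sign. The difference then ran from -1.05 to -0.71 for ub2 and from -0.92 to -0.64 for ub3. The ub2 call was lost without sibling ear 1 (adjusted p = 0.091), sibling ear 2 (0.096), kn1-e1 SAM 1 (0.091) or kn1-e1 SAM 2 (0.063). The ub3 call was lost when any of the 4 ear libraries was left out (adjusted p = 0.052 to 0.15) and without kn1-e1 SAM 1 (0.11) or kn1-e1 SAM 2 (0.082). For sbp2 the SAM counts were too few for this difference to be read.

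**Figure D3:**
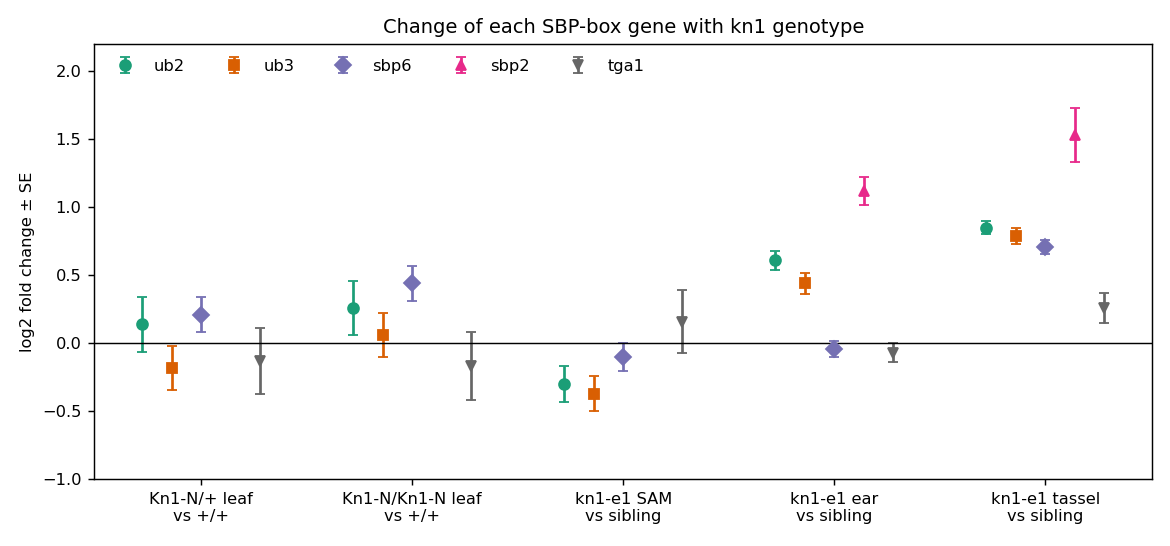
Log2 fold change with SE (vertical axis) of each SBP-box gene in the 5 comparisons of a kn1 genotype with its control. In ear and tassel ub2, ub3 and sbp2 lie above 0, in SAM ub2 and ub3 lie below 0, and sbp2 has no point in leaf or SAM because its counts were under the low-count filter.

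Extra kn1 in the leaf left ub2 and ub3 near their low wild-type levels. The gene ub2 held 8.66 and 8.21 CPM in Kn1-N/Kn1-N leaves, 5.83 and 9.71 CPM in Kn1-N/+ leaves and 6.42 and 7.69 CPM in +/+ leaves. The gene ub3 held 7.38 and 8.26 CPM, 6.04 and 7.36 CPM, and 6.74 and 8.41 CPM in the same order. For ub3 both Kn1-N genotypes overlapped +/+, whereas for ub2 the homozygotes lay above +/+ but inside the heterozygote range. Homozygotes differed from +/+ by 0.26 ± 0.20 for ub2 (adjusted p = 0.40, 95% interval -0.17 to 0.70) and by 0.06 ± 0.16 for ub3 (adjusted p = 0.83, 95% interval -0.28 to 0.40).

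The gene sbp6 stepped up with the number of Kn1-N copies, at 7.97 and 7.64 CPM in +/+, 9.16 and 9.0 CPM in Kn1-N/+ and 11.5 and 9.62 CPM in Kn1-N/Kn1-N leaves, without overlap. Homozygotes exceeded +/+ by 0.44 ± 0.13 (adjusted p = 0.037), so 1 of 3 tested genes was called, where 9.16% of 22071 genes rose and 9.59% fell. That sbp6 call was lost with library totals (0.40, adjusted p = 0.054), with DESeq2 (0.44, adjusted p = 0.18), and without homozygote 1 (0.30, adjusted p = 0.30), homozygote 2 (0.57, adjusted p = 0.066), wild type 1 (0.47, adjusted p = 0.12) or wild type 2 (0.41, adjusted p = 0.15). Heterozygotes differed from +/+ by 0.21 ± 0.13 for sbp6 (adjusted p = 0.78) and from homozygotes by 0.22 ± 0.13 (adjusted p = 0.35), with the higher level in homozygotes. The +/+ libraries are shared by both comparisons with the wild type.

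In heterozygous against +/+ leaf edgeR called 0 of 3 genes, against 0.145% of all genes, and 0 had an unadjusted p under 0.05. In homozygous against heterozygous leaf it called 0 of 3, against 4.75% of all genes, and again 0 had an unadjusted p under 0.05. DESeq2 called 0 in each. The gene tga1 lay between 1.84 and 2.30 CPM in all 6 leaf libraries.

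The remaining 19 SBP-box genes were not chosen by the tassel contrast. In the kn1-e1 tassel 4 of 17 tested rose and 0 fell, against 2.34% and 5.55% of all genes, with a median of 0.10 against 0.01 over all genes. They were lg1 (GRMZM2G036297), which is needed for the ligule at the junction of blade and sheath (0.91 ± 0.13, adjusted p = 0.0011), sbp23 (GRMZM2G126018; 0.53 ± 0.09, adjusted p = 0.0041), sbp1 (GRMZM2G111136; 0.53 ± 0.12, adjusted p = 0.017) and sbp29 (GRMZM2G067624; 0.19 ± 0.04, adjusted p = 0.023). This count was 2 without kn1-e1 tassel 3 and 2 without sibling tassel 3. The calls of lg1 and sbp23 held in all 13 alternatives run, and those of sbp1 and sbp29 were lost in 3 and in 5 of them.

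In the kn1-e1 ear 4 of 16 tested rose and 1 fell, against 8.21% and 10.4% of all genes, with a median of -0.02 against 0.01 over all genes. The increases were those of sbp23 (1.05 ± 0.13, adjusted p = 0.00015), sbp16 (GRMZM2G169270; 0.28 ± 0.05, adjusted p = 0.0019), sbp1 (0.43 ± 0.08, adjusted p = 0.003) and sbp29 (0.22 ± 0.06, adjusted p = 0.033), and the decrease that of a gene named sbp3 (GRMZM2G101499; -1.24 ± 0.20, adjusted p = 0.00084). Thus sbp1, sbp23 and sbp29 were called up in both inflorescences, each against that organ's own siblings. Without sibling ear 2 the count was 2, and sbp16 (adjusted p = 0.096) and sbp1 (adjusted p = 0.11) were among the calls lost. That of sbp29 was also lost without sibling ear 1, without kn1-e1 ear 1 and by DESeq2.

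In the SAM the median was -0.03 against 0. There 2 of 15 had an unadjusted p under 0.05 and DESeq2 called 0. The edgeR test called 0 of 15, against 0.164% of all genes. Without sibling SAM 1 it called 1 and without sibling SAM 2 it called 3. In homozygous leaf the median was -0.12 against 0.01. There 2 of 17 rose, sbp21 (GRMZM2G148467; 2.04 ± 0.45, adjusted p = 0.0074) and sbp3 GRMZM2G101499 (0.64 ± 0.18, adjusted p = 0.022). A further gene named sbp3 (GRMZM2G106798) fell (-0.33 ± 0.11, adjusted p = 0.048). Over all genes 9.16% rose and 9.59% fell there, so the family's share was near the background. These 3 leaf calls came to 0 or 1 without either homozygote or either +/+ library and to 1 by DESeq2. Both other leaf comparisons had 0 calls of 17 by edgeR and by DESeq2. Over all genes edgeR called 0.145% in heterozygous against +/+ leaf and 4.75% in homozygous against heterozygous leaf. In these comparisons 2 and 3 of the 17 had an unadjusted p under 0.05. Without heterozygote 2, homozygous against heterozygous leaf had 2 calls.

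**Figure D4:**
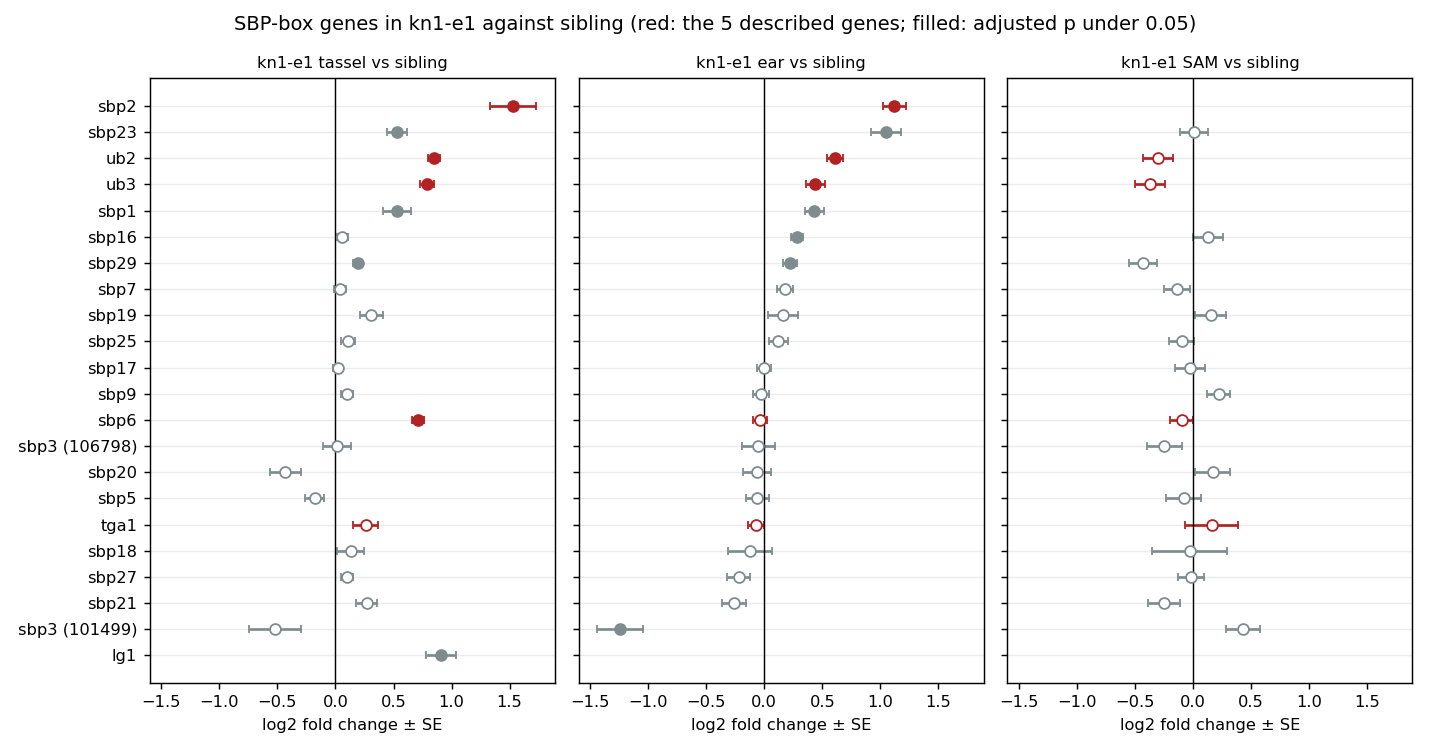
Log2 fold change with SE (horizontal axis) of each tested SBP-box gene in kn1-e1 against sibling tassel, ear and SAM, in red for the 5 described genes and grey for the others, filled where the adjusted p was under 0.05. No gene is filled in SAM, and among the grey genes sbp23, sbp1 and sbp29 are filled to the right of 0 in tassel and ear. In tassel the red genes other than tga1 were chosen by this contrast, and their fill is no result.

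Across control tissues the SBP-box family had no common pattern. Of 24 genes 22 reached 1 CPM in a control group. Of these, 8 had their highest control mean in ear, among them sbp6, sbp2 and tga1, and 7 in SAM, among them ub2 and ub3. The tassel was highest for 4 and the leaf for 3. The low leaf level of the 5 genes was not shared by sbp17 (GRMZM2G156756), at 164 CPM in +/+ leaf and 114 CPM in sibling SAM, a gene named here after its values were seen.

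**Figure D5:**
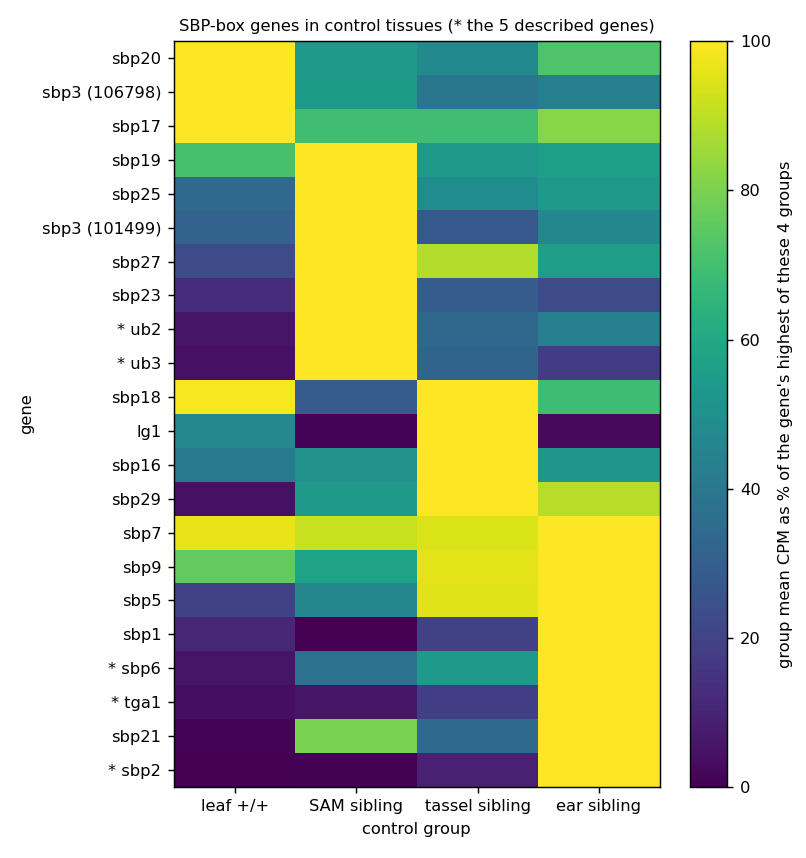
Group mean CPM of each SBP-box gene in the 4 control groups (columns) as a percentage of that gene's highest control group (colour scale), with the 5 described genes starred. The genes ub2 and ub3 peak in SAM, and sbp6, tga1 and sbp2 peak in ear.

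Genes of flowering, phase change and inflorescence architecture were taken from a pair of lists. Of 7 genes named for the AP2 class targeted by miR172, floral promotion and phase change, ids1 (GRMZM5G862109; indeterminate spikelet1, an AP2 gene of spikelet meristem fate) fell in the mutant tassel (-0.39 ± 0.06, adjusted p = 0.002) and ear (-0.51 ± 0.09, adjusted p = 0.0013). In the tassel zap1 (GRMZM2G148693), a MADS-box gene, rose slightly (0.16 ± 0.04, adjusted p = 0.033), a call lost in 6 of 13 alternatives, of which 5 each left out 1 library, so that 1 and not 2 genes was called without kn1-e1 tassel 2 or 3 or without any sibling tassel. That made 1 up and 1 down of 6 tested in tassel (median -0.02 against 0.01 over all genes), where 2.34% of all genes rose and 5.55% fell. In ear it made 0 up and 1 down of 6 (median -0.16 against 0.01), where 8.21% of all genes rose and 10.4% fell. The gene ids1 kept its call in all alternatives run. Without kn1-e1 ear 2 the ear count was 2.

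In SAM edgeR called 0 of 5 of these genes, against 0.164% of all genes. Of the 5, 0 had an unadjusted p under 0.05, and DESeq2 called 0. In homozygous leaf id1 (GRMZM2G011357, indeterminate1, a leaf-expressed regulator of flowering time) fell against +/+ (-0.87 ± 0.12, adjusted p = 0.00038). It was the only call among 5 genes, where 9.16% of all genes rose and 9.59% fell. Against heterozygotes it was -0.50 ± 0.12 (adjusted p = 0.035), a call lost in 7 of 13 alternatives, DESeq2 and leaving out either homozygote, heterozygote 1 or either +/+ library among them. In heterozygous against +/+ leaf edgeR called 0 of 5, against 0.145% of all genes. Of the 5, 1 had an unadjusted p under 0.05, and DESeq2 called 0. The edgeR count changed without heterozygote 1.

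Of 16 genes of axillary branching and inflorescence architecture, 0 rose and 4 fell in the mutant tassel, where 2.34% of all genes rose and 5.55% fell. Their median was -0.05 against 0.01 over all genes. The growth suppressor gt1 (GRMZM2G005624; grassy tillers1) fell by 1.48 on the log2 scale (SE 0.18, adjusted p = 3e-04). BIF4 (GRMZM5G864847), an auxin-response gene of axillary meristem initiation, changed by -0.28 ± 0.06 (adjusted p = 0.018), and fea3 (GRMZM2G166524), a receptor gene of meristem size, by -0.25 ± 0.07 (adjusted p = 0.044). Of the 4 calls 1 or 2 were made without kn1-e1 tassel 1 or 3 or without any sibling tassel, and 2 with library totals and with DESeq2, while gt1 kept its call in all 13 alternatives. The calls of BIF4 and fea3 were lost in 4 and in 8 of them.

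In the mutant ear 4 of 16 tested architecture genes rose and 5 fell, where 8.21% of all genes rose and 10.4% fell. Their median was 0 against 0.01 over all genes. The smallest p belonged to fea3 (-0.64 ± 0.07, adjusted p = 3.9e-05), gt1 (0.51 ± 0.09, adjusted p = 0.0011) and ra3 (GRMZM2G014729; ramosa3, which limits inflorescence branching; 0.53 ± 0.11, adjusted p = 0.0047). The count was 2 without sibling ear 1 and 2 without sibling ear 2, of which the former lost the ra3 call (adjusted p = 0.095) and the latter the gt1 call (adjusted p = 0.051), and 4 by DESeq2. Whether gt1 differed between tassel and ear was not tested. In SAM edgeR called 0 of 12, against 0.164% of all genes. Of the 12, 0 had an unadjusted p under 0.05, and DESeq2 called 0. The edgeR count changed without sibling SAM 2. In homozygous leaf 1 of 10 rose and 1 fell, BIF4 (1.95 ± 0.25, adjusted p = 0.00022) and fea3 (-0.35 ± 0.06, adjusted p = 0.0023, lost without homozygote 2, adjusted p = 0.065), a share near the 9.16% up and 9.59% down of all genes. Heterozygotes had 0 of 10 called against +/+, where 0.145% of all genes were called, and homozygotes 0 of 10 against heterozygotes, where 4.75% were. Each comparison had 2 at an unadjusted p under 0.05 and 0 by DESeq2. Without heterozygote 1 the former had 1 call, and without heterozygote 2 the latter had 2.

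Over the 9 group means of log2 CPM, which share libraries and tissues, ub2 and ub3 had a Pearson r of 0.95 with each other, and sbp2 and tga1 one of 0.98. The r of ub3 was 0.26 with sbp2 and 0.31 with tga1, and that of sbp6 was between 0.74 (with ub3) and 0.87 (with ub2). Of 20832 genes with a mean of at least 1 CPM, tga1 ranked 3 among those most like sbp2, behind WRKY72 (GRMZM5G816457, r = 0.9908) and GRMZM2G090087 (r = 0.9899), while ub2 ranked 432 in likeness to ub3.

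The gene most like ub2 was GRMZM5G814441 (r = 0.9965), followed by GRMZM2G031850 (r = 0.9952) and GRMZM2G090480 (r = 0.9949). For ub3 they were GRMZM5G899080 (r = 0.9972), GRMZM2G008638 (r = 0.9944) and GRMZM2G050137 (r = 0.9937). For sbp6 they were GRMZM2G022213 (r = 0.9964), GRMZM2G062373 (r = 0.9964) and GRMZM2G460090 (r = 0.9952), and for tga1 GRMZM2G136081 (r = 0.9956), GRMZM2G438606 (r = 0.9925) and GRMZM2G112176 (r = 0.992). With so few points many genes reach such values, and the order changed over the 20 single libraries, where the gene most like ub2 by group means ranked 480.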

How the data were processed

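The authors deposited raw counts, with a row for each of 39656 genes and a column for each library; 8181 genes were at 0 in all 20. Per the submitters' processing notes, CASAVA 1.8, TopHat 1.2.0, HTSeq and DESeq 1.4.1 were used, with no role or order given. The genome build is not given in the sources used here. Per the labels, libraries were made from Trizol RNA by an Illumina TruSeq protocol; as that kit does not mark strand, sense and antisense reads of overlapping genes were not separable. Names came from a RefSeq gene table of another build (18775 identifiers, 47.3%, matched), and no coordinates or sequences were used.

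Counts were fitted with edgeR 4.0.16 in R 4.3.3 (quasi-likelihood test, TMM, genes kept by filterByExpr at min.count 10 and min.total.count 15, adjusted p under 0.05 over all genes tested). Leaf, tassel, ear and SAM were fitted apart, tissue differences in 1 fit of 20 libraries, and the SAM minus ear difference in 1 fit of 8. All 5 genes passed the filter in tassel, ear and the joint fits; sbp2 did not in leaf and SAM. Its joint fits with SAM or leaf were replaced by ratios of summed counts, since it passed there through ear and tassel. Each SE was derived from the F statistic and the fold change and is approximate. CPM used TMM factors over 20 libraries, and likeness used log2 CPM with a prior count of 2. DESeq2 1.42.0 and other scalings, filters and fits were alternatives. The fits were first tested on simulated data.

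The genes, lists and tests were chosen with earlier results of these data known, so no p adjusted over a list alone is given. The rule for naming genes took the 5 genes, kn1, up to 3 called genes of a list per comparison by smallest p, and the 3 genes most like each of the 5; further SBP-box calls (sbp29 in tassel, sbp1 and sbp29 in ear) were named after their values were seen. The design calls the libraries biological replicates, but nothing says whether pools share plants, and p-values measure the spread between these libraries. Within groups the libraries correlated at 0.9914 to 0.9942 (log2 CPM).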

Additional observations from a re-analysis of the deposited data

Results flagged for a closer look

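The kn1-e1 effect on ub2 and ub3 differed between SAM and ear. Mutant ears were also the smaller organs, and ear and SAM differ in growth place and age. These cannot be told apart from the tissue. The effect in SAM minus that in ear was -0.90 for ub2 and -0.79 for ub3 on the log2 scale by an interaction term (adjusted p = 0.013 and 0.019, edgeR). The ub2 call was lost on leaving out any of 4 of the 8 libraries (adjusted p up to 0.096) and the ub3 call any of 6 of the 8 (up to 0.15). Both mutant SAM libraries lay below both sibling SAM libraries, and both mutant ears lay above both sibling ears.

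For ub2, ub3 and sbp6 all tassel mutants were above all tassel siblings, which is the rise by which these genes were chosen. In SAM each mutant library was below each sibling library for the same genes. The log2 fold change in SAM was -0.30 for ub2, -0.37 for ub3 and -0.10 for sbp6, and none passed the adjusted threshold. That of sbp6 was about the size of its SE (0.10, edgeR adjusted p = 0.96), so no fall of sbp6 in SAM is read from it. With so few SAM libraries per group, their order alone does not show a fall for any of these genes. The difference between tassel and SAM was not tested, because the tassel contrast is the one by which the genes were known.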

How the results depend on the processing

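No call of a described SBP-box gene or of another named gene changed direction under the alternatives run for it; for the remaining genes only counts were compared. Members called in homozygous leaf went from 1 to 0 with library totals and with DESeq2. DESeq2 called fewer genes in homozygous leaf (2397 against 4139), homozygous against heterozygous leaf (612 against 1049) and ear (1846 against 3955), and 1 rather than 3 other SBP-box genes in homozygous leaf. Without a low-count filter other SBP-box calls in ear were 9 against 5, genes called in SAM 111 against 34, and genes with a SAM minus ear difference 1318 against 392. Genes called in SAM were 64 in 1 fit of all 20 libraries, which called 1 other SBP-box gene against 0. The cause of these shifts was not tested.

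The deviations of same-numbered libraries correlated at r from -0.0301 to 0.0514 in leaf, tassel and ear and at -0.117 in SAM. Where groups hold 2 libraries, the pairs give a single value. Whether the numbers mark more than a label cannot be told from these values. With the replicate block, genes called in SAM were 72, and no member call changed. A crossed pairing of the SAM numbers, chosen after seeing the data, called 105 genes, 1 other SBP-box gene and 0 members.

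Leaving out 1 library at a time gave 0 to 1 members in homozygous leaf, 0 to 2 in SAM and 0 to 2 in SAM minus ear. Genes called ranged from 1061 to 5779 in homozygous leaf, 8 to 628 in heterozygous leaf (32 with all), 166 to 3105 between homozygotes and heterozygotes, 884 to 2228 in tassel (1668 with all), 1167 to 5898 in ear, 48 to 1746 in SAM and 62 to 1798 in SAM minus ear. Other SBP-box calls ranged from 0 to 3 in homozygous leaf, 0 to 2 between homozygotes and heterozygotes, 2 to 5 in tassel, 2 to 7 in ear and 0 to 3 in SAM. With library totals 38 of 45 member levels moved by less than 1 SD and all by -6.32 to 4.62%. Depth limits sbp2, whose SAM and leaf values rest on 0 to 3 counts per library.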
